A study of Mus musculus with 6 samples.

Results

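The enzymes of the mitochondrial matrix that make acetyl-CoA from pyruvate and from fatty acids and then oxidize it were compared between wild-type (WT) mice and Zip13-KO littermates in inguinal white adipose tissue, or iWAT. The set was a given list of 32 genes, of which 5 encode subunits of the pyruvate dehydrogenase complex, 12 encode enzymes of the TCA cycle and 15 belong to mitochondrial β-oxidation. Each gene was read from array probes whose target is a RefSeq transcript of that gene. All 32 genes were among the 15306 genes tested, and their probes were well above background on all 6 arrays.

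iWAT is the subcutaneous fat pad of the groin, and Slc39a13 encodes ZIP13, a zinc transporter of intracellular membranes. The Zip13-KO mice carried a germline allele in which a Neo cassette replaced exons 6 to 8 of Slc39a13, so the gene was targeted in every tissue and not in fat alone. Mice of both genotypes were 10 weeks old, had been crossed to C57BL/6J for 7 generations or more and ate powdered feed. The labels give neither the sex of these mice nor which of the colony's feeds, standard or high in fat, they received. Profiles of 3 WT and 3 Zip13-KO samples were made on 1-colour arrays, where each array holds 1 labelled RNA sample and a spot is brighter the more of its transcript is present. Nothing in the labels ties the 3 samples of a genotype to separate mice, so the p-values measure the spread between these samples.

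The 6 arrays were scanned together on 1 slide and resembled each other closely. Pearson correlations over the genes tested were 0.986 to 0.993 among the WT, 0.994 to 0.995 among the Zip13-KO and 0.960 to 0.984 between the genotypes. Between 58.8% and 63.2% of probes per array were well above background, and no spot was saturated. Slc39a13 itself read 11.29, 10.87 and 10.72 in WT and 6.76, 6.66 and 6.47 in Zip13-KO arrays on the log2 scale, a change of −4.33 (SE 0.17, limma adjusted p = 0.00128), so each array matched its label. A gene was called higher or lower when its limma p, adjusted over all genes tested, was under 0.05 and its change passed 1.5-fold, which is 0.58 on the log2 scale. All levels below are log2 intensities after quantile normalization, and all changes are Zip13-KO minus WT on that scale.

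Pyruvate enters the matrix and is converted to acetyl-CoA by the pyruvate dehydrogenase complex, while fatty acids give acetyl-CoA by repeated turns of β-oxidation. The TCA cycle then oxidizes the acetyl group and passes electrons to the respiratory chain as NADH and reduced flavin. White adipocytes use these routes sparingly and also draw citrate from the cycle for fatty acid synthesis, whereas brown and beige adipocytes burn large amounts of fuel in them to make heat.

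Transcripts of this machinery were more abundant in Zip13-KO iWAT almost without exception. Of the 32 genes, 31 were called higher and 0 were called lower, where 10.3% of all genes tested were called higher and 8.38% lower. At an unadjusted limma p under 0.05, 32 were higher and 0 lower, where 25.3% of all genes were higher and 21.8% lower, and the methods' t-test with adjustment also called 0 lower. The 31 changes ran from 0.77 for Suclg2 to 1.36 for Hadhb, which is 1.70-fold to 2.56-fold, with limma adjusted p from 0.00404 (Acaa2) to 0.0168 (Pdhb). Idh2, the NADP-dependent isocitrate dehydrogenase of the matrix, was the exception at 0.23. The median change of the 32 genes was 0.999, while the median over all genes tested was −0.00051. Every Zip13-KO array read above every WT array for all 32 genes, and below for 0. Over all genes tested, 29.2% had every Zip13-KO array above every WT array, and 25.9% had every one below. By size of the rise, the called genes ranked between 174 and 1099 among the 15306, and Idh2 ranked 4490.

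**Figure D1:**
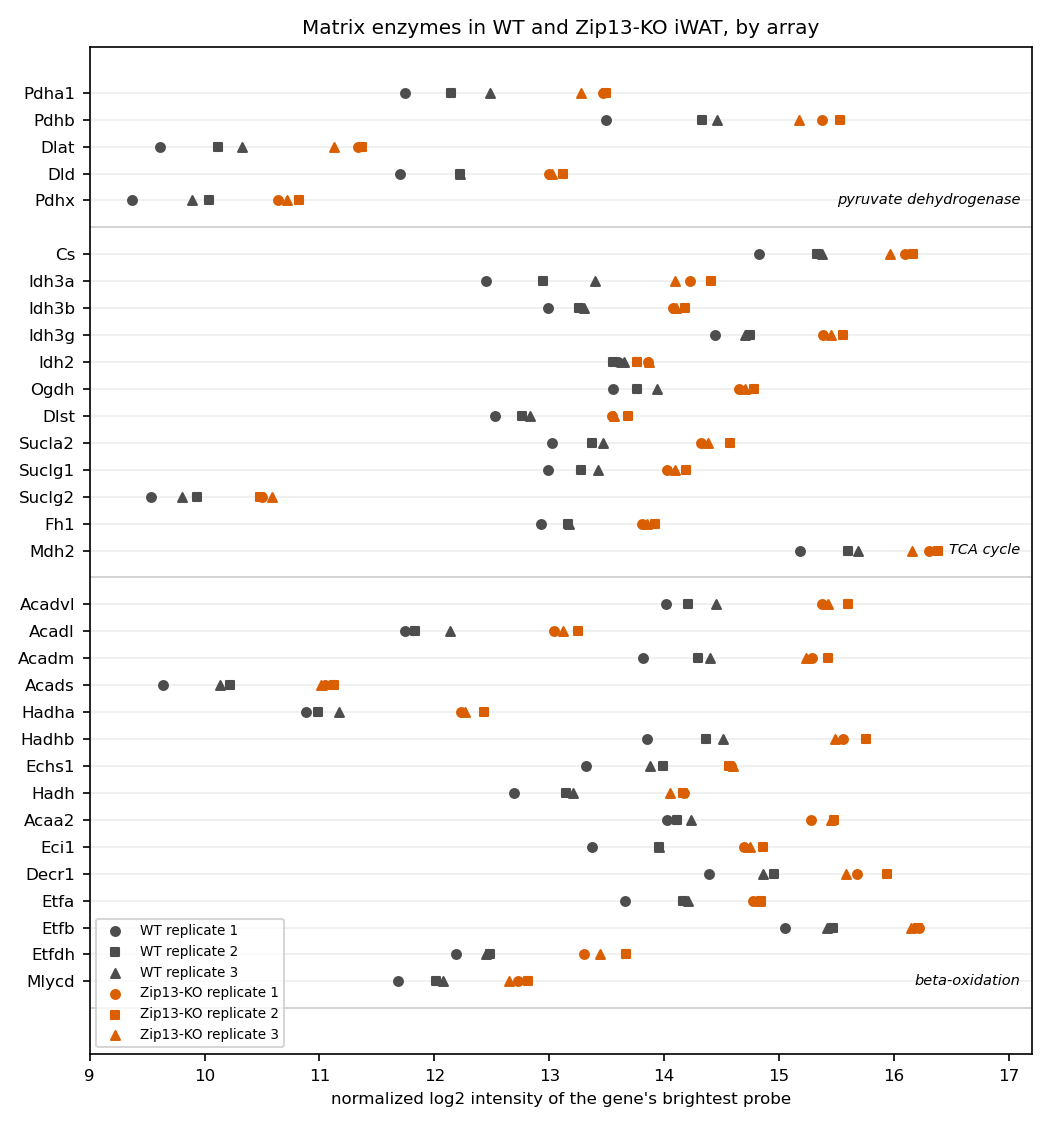
Normalized log2 intensity (horizontal axis) of the 32 matrix enzymes, 1 row for each gene, with 1 point for each of the 3 WT (grey) and 3 Zip13-KO (orange) arrays. The Zip13-KO points lie to the right of the WT points in every row, the gap between the groups is narrowest for Idh2 at 0.11, and WT replicate 1 (grey circle) is the leftmost point in 31 rows.

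The WT arrays were less alike than the Zip13-KO arrays. The SD of the 3 WT values exceeded that of the 3 Zip13-KO values for 29 of the 32 genes, with a median of 0.25 (0.046 to 0.52) in WT and 0.091 (0.021 to 0.19) in Zip13-KO arrays. WT replicate 1 was the lowest of all 6 arrays for 31 genes, and Zip13-KO replicate 2 was the highest of its genotype for 27. Without WT replicate 1 the median change of the 32 genes was 0.84, and 31 were still called higher. The distance from the highest WT to the lowest Zip13-KO value was 0.47 (Mdh2) to 1.06 (Hadha) among the called genes. On the slide, Zip13-KO replicate 1 shared its column with the WT arrays, and it read above all 3 of them for 32 of 32 genes and for 40.2% of all genes tested. The part of the slide column in the result was not tested.

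All 5 pyruvate dehydrogenase genes were called higher, with a median change of 1.26. This complex joins glycolysis to the TCA cycle, and its E1 component, which decarboxylates pyruvate, is built from the products of Pdha1 and Pdhb. Pdha1 (NM_008810) read 11.75, 12.14 and 12.48 in WT and 13.46, 13.49 and 13.27 in Zip13-KO arrays. The 3 Zip13-KO values lay close together and at least 0.79 above any WT value, and the change was 1.29 (SE 0.19, limma adjusted p = 0.00781), or 2.44-fold. Pdhb (NM_024221) read 13.50, 14.33 and 14.46 in WT and 15.37, 15.53 and 15.17 in Zip13-KO arrays, a change of 1.26 (SE 0.26, limma adjusted p = 0.0168). Its WT SD of 0.52 was the widest of the 32 genes, because WT replicate 1 read far below the other 2 WT arrays.

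The remaining subunits of the complex rose by 0.96 to 1.26. Dlat, which encodes the E2 acetyltransferase core, read 9.61, 10.12 and 10.33 in WT and 11.34, 11.37 and 11.12 in Zip13-KO arrays, and its change was 1.26 (SE 0.19, limma adjusted p = 0.00830). Dld encodes E3, the dihydrolipoyl dehydrogenase that also serves the 2-oxoglutarate dehydrogenase complex of the TCA cycle. It read 11.70, 12.22 and 12.22 in WT and 13, 13.12 and 13.03 in Zip13-KO arrays, and its change was 1.0 (SE 0.16, limma adjusted p = 0.00870). Pdhx, whose product anchors E3 to the core, read 9.37, 10.04 and 9.89 in WT and 10.64, 10.82 and 10.72 in Zip13-KO arrays, a change of 0.96 (SE 0.18, limma adjusted p = 0.0129). WT and Zip13-KO values did not overlap for any of these subunits, and WT replicate 1 was the low array in each. The median change of the 5 genes was 0.95 without WT replicate 1. Without Zip13-KO replicate 2, 3 of the 5 passed the threshold, with limma adjusted p of 0.0610 for Pdhb and 0.0517 for Pdhx, and without Zip13-KO replicate 1 the value for Pdhb was 0.0589.

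In the TCA cycle, 11 of 12 genes were called higher and the median change was 0.88. Citrate synthase, which condenses acetyl-CoA with oxaloacetate, is encoded by Cs (NM_026444). It read 14.82, 15.33 and 15.38 in WT and 16.10, 16.17 and 15.96 in Zip13-KO arrays, a change of 0.90 (SE 0.16, limma adjusted p = 0.0118). Again the genotypes did not overlap, and WT replicate 1 was well below the other WT arrays.

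The NAD-dependent isocitrate dehydrogenase, the main isocitrate-oxidizing enzyme of the cycle, is made of subunits encoded by Idh3a, Idh3b and Idh3g. Idh3a (NM_029573), the catalytic subunit, showed the greatest change of the 12 TCA cycle genes: it read 12.45, 12.95 and 13.40 in WT and 14.23, 14.40 and 14.09 in Zip13-KO arrays, a change of 1.31 (SE 0.24, limma adjusted p = 0.0123), or 2.48-fold. Its WT values were widely spread (SD 0.47), yet each stayed below the Zip13-KO values. Idh3b rose by 0.94 (SE 0.10, limma adjusted p = 0.00515). Idh3g rose by 0.83 (SE 0.11, limma adjusted p = 0.00633).

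Idh2 (NM_173011) catalyses the same conversion with NADP and yields NADPH in the matrix. It read 13.60, 13.56 and 13.65 in WT and 13.86, 13.77 and 13.87 in Zip13-KO arrays. Both genotypes were tight, with SDs of 0.046 and 0.058, and the values came close without overlapping. The change was 0.23 (SE 0.07, limma adjusted p = 0.0531, unadjusted p = 0.0189), or 1.17-fold, so in the main fit Idh2 met neither the p nor the fold criterion. The p criterion depended on the setting. The limma adjusted p was 0.0144 with 75th percentile scaling and 0.0569 in the deposited table, and the methods' t-test gave an adjusted p of 0.0377. The change was 0.21 to 0.35 over the settings, so the fold criterion was not met in any. WT replicate 1, the lowest of the 6 arrays for the other 31 genes, was between the other WT arrays for Idh2.

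Downstream of isocitrate, Ogdh and Dlst encode E1 and E2 of the 2-oxoglutarate dehydrogenase complex. Ogdh (NM_001252287) read 13.56, 13.76 and 13.94 in WT and 14.65, 14.78 and 14.71 in Zip13-KO arrays, a change of 0.96 (SE 0.11, limma adjusted p = 0.00551). Of the 3 Ogdh probes, the second gave 0.99, but the dimmest read 11.62, 11.95 and 11.60 in WT and 11.78, 11.67 and 11.74 in Zip13-KO arrays, with overlapping groups and a change of 0.0064. The files name the same transcript for all 3 probes, and the dimmest was well above background on all 6 arrays. Whether that probe reads another product was not tested. With the 3 probes averaged, Ogdh still passed both criteria. Dlst rose by 0.89 (SE 0.11, limma adjusted p = 0.00548).

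Succinyl-CoA ligase pairs a shared subunit, encoded by Suclg1, with an ADP-forming subunit encoded by Sucla2 or a GDP-forming subunit encoded by Suclg2. Sucla2 (NM_011506) read 13.02, 13.37 and 13.47 in WT and 14.32, 14.57 and 14.38 in Zip13-KO arrays, a change of 1.13 (SE 0.14, limma adjusted p = 0.00589). Suclg2 (NM_011507) read 9.53, 9.94 and 9.80 in WT and 10.50, 10.48 and 10.59 in Zip13-KO arrays, a change of 0.77 (SE 0.12, limma adjusted p = 0.00839). Both subunits separated the genotypes fully. Suclg1 changed by 0.87 (SE 0.13, limma adjusted p = 0.00771).

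The closing steps of the cycle were represented by Fh1, which encodes fumarase, and Mdh2, which encodes the matrix malate dehydrogenase. Fh1 read 12.92, 13.16 and 13.17 in WT and 13.81, 13.92 and 13.85 in Zip13-KO arrays, a change of 0.77 (SE 0.10, limma adjusted p = 0.00589). Mdh2 (NM_008617) read 15.18, 15.60 and 15.68 in WT and 16.30, 16.38 and 16.16 in Zip13-KO arrays, a change of 0.79 (SE 0.15, limma adjusted p = 0.0132). Neither gene overlapped between genotypes. The limma adjusted p of Mdh2 was 0.0532 without Zip13-KO replicate 1 and 0.0533 without replicate 2.

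All 15 β-oxidation genes were called higher, with a median change of 1.1. The first step is taken by acyl-CoA dehydrogenases that differ in the chain length they accept. Acadvl (NM_017366), for very long chains, read 14.02, 14.21 and 14.45 in WT and 15.37, 15.60 and 15.42 in Zip13-KO arrays, a change of 1.24 (SE 0.13, limma adjusted p = 0.00487). The lowest Zip13-KO value was 0.92 above the highest WT value. Acads (NM_007383), for short chains, read 9.64, 10.22 and 10.14 in WT and 11.04, 11.12 and 11.01 in Zip13-KO arrays, a change of 1.06 (SE 0.16, limma adjusted p = 0.00831). Acadl and Acadm, for long and medium chains, rose by 1.23 and 1.14 (limma adjusted p = 0.00459 and 0.00736), so the fitted changes of the 4 dehydrogenases lay between 1.06 and 1.24.

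The later steps on long chains are carried out by the trifunctional protein, whose α and β subunits are encoded by Hadha and Hadhb. Hadha (NM_178878) read 10.89, 10.99 and 11.17 in WT and 12.23, 12.43 and 12.27 in Zip13-KO arrays, a change of 1.29 (SE 0.10, limma adjusted p = 0.00408), or 2.45-fold. Its gap of 1.06 between the genotypes was the widest of the 32 genes. Hadhb (NM_001289798) read 13.85, 14.36 and 14.51 in WT and 15.56, 15.76 and 15.48 in Zip13-KO arrays, a change of 1.36 (SE 0.19, limma adjusted p = 0.00689), or 2.56-fold. In the main fit the subunits of this enzyme thus had the greatest changes of the 15 genes, with Acaa2 close behind at 1.28. With 75th percentile scaling Acaa2, at 1.39, exceeded Hadha, at 1.35, and with normexp background correction it also did.

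Hadha and Hadhb lie head to head on chromosome 5, with RefSeq starts 273 bases apart on opposite strands (build GRCm38.p6), so that their promoter windows overlap. The stretch between them is printed because this was the pair of members that lay head to head in the RefSeq table, and because their transcripts moved by nearly the same amount. It covers bases −250 to −1 before the start of Hadhb, at chr5:30155003-30155252 on the plus strand. Capitals mark the letters GGGCGG, the GC box, which occurs at 2 places on this strand.
Hadhb: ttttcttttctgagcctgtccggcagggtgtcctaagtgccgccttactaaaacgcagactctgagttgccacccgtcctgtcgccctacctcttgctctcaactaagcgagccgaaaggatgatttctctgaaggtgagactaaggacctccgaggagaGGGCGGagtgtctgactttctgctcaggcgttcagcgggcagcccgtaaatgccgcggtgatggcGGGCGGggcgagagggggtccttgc

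Shorter chains are processed by single enzymes. Echs1 encodes the enoyl-CoA hydratase and read 13.32, 13.99 and 13.87 in WT and 14.58, 14.56 and 14.60 in Zip13-KO arrays, a change of 0.85 (SE 0.18, limma adjusted p = 0.0166). The 3 Zip13-KO values were nearly equal (SD 0.021), whereas WT replicate 1 was well below the other WT arrays. Without Zip13-KO replicate 1, 2 or 3, the limma adjusted p of Echs1 was 0.0596, 0.0563 and 0.0534. Hadh, the 3-hydroxyacyl-CoA dehydrogenase, changed by 1.12 (SE 0.15, limma adjusted p = 0.00656). Acaa2 (NM_177470), the thiolase that releases acetyl-CoA, read 14.02, 14.11 and 14.24 in WT and 15.28, 15.48 and 15.45 in Zip13-KO arrays. It had the smallest adjusted p of the 32 genes, with a change of 1.28 (SE 0.10, limma adjusted p = 0.00404).

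Unsaturated fatty acids need auxiliary enzymes, and of these Eci1, the enoyl-CoA isomerase, and Decr1, the dienoyl-CoA reductase, rose by 1.01 and 0.997 (limma adjusted p = 0.0103 and 0.0111). Electrons from the acyl-CoA dehydrogenases pass through the flavoprotein of Etfa and Etfb to the ubiquinone oxidoreductase of Etfdh. Etfdh (NM_025794) read 12.19, 12.48 and 12.44 in WT and 13.30, 13.67 and 13.44 in Zip13-KO arrays, a change of 1.1 (SE 0.13, limma adjusted p = 0.00554). Etfa and Etfb rose by 0.81 (SE 0.16, limma adjusted p = 0.0135) and 0.88 (SE 0.13, limma adjusted p = 0.00724), and the limma adjusted p of Etfa was 0.0523 without Zip13-KO replicate 2. Mlycd encodes malonyl-CoA decarboxylase, which removes the inhibitor of fatty acid entry into mitochondria. It read 11.68, 12.01 and 12.07 in WT and 12.73, 12.81 and 12.65 in Zip13-KO arrays, and its change of 0.81 (SE 0.12, limma adjusted p = 0.00819) was the smallest of the 15.

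**Figure D2:**
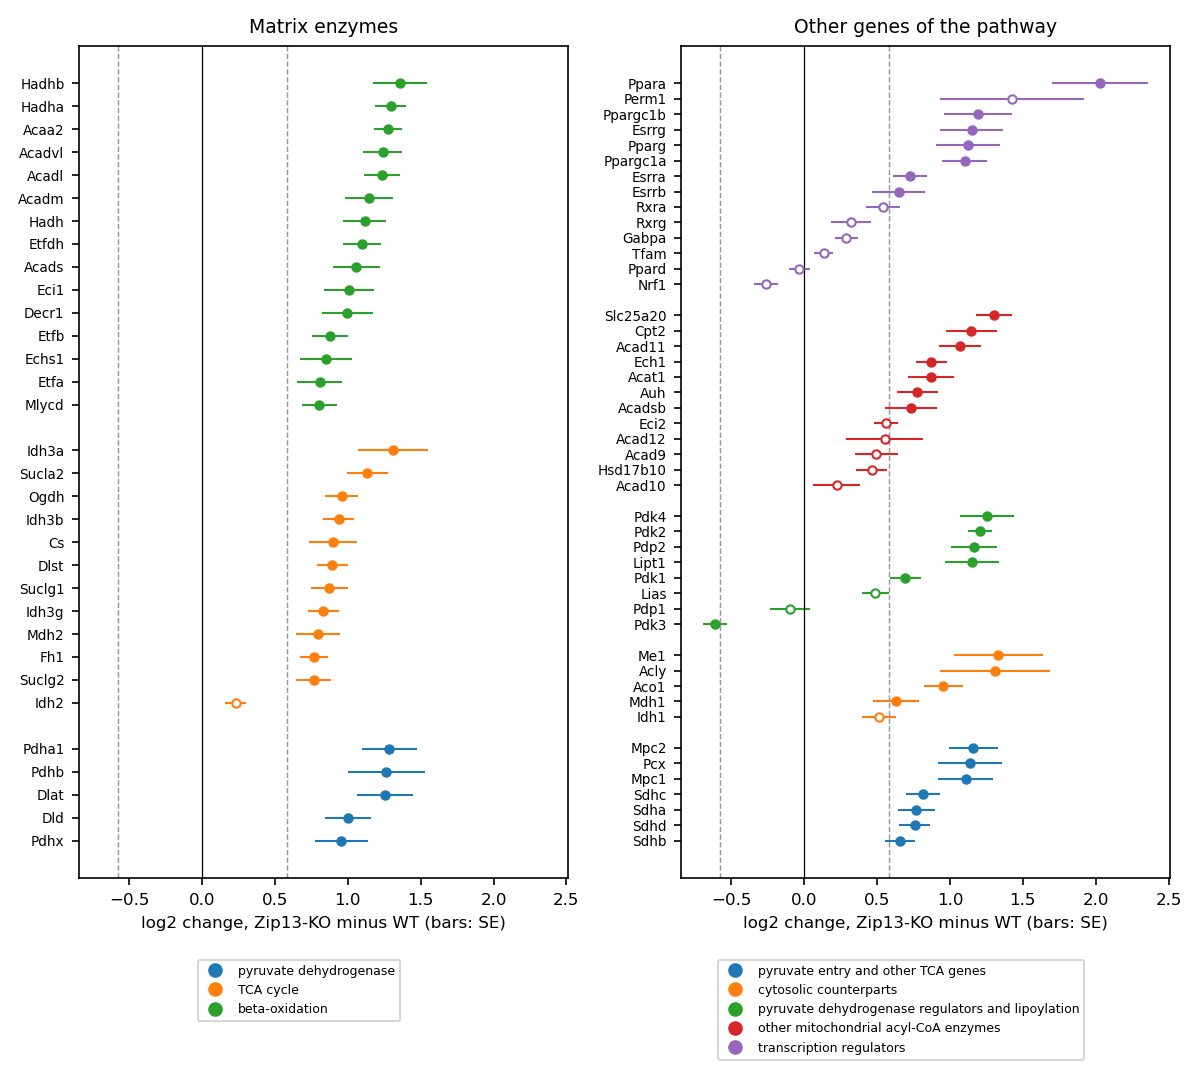
Change in log2 intensity, Zip13-KO minus WT (horizontal axis), of each matrix enzyme (left) and of each tested gene of the other pathway lists (right), with bars for the SE of the limma fit, filled points for genes called and open points for the rest, and dashed lines at a 1.5-fold change. On the left every point but Idh2 lies beyond the dashed line, and on the right Pdk3 is the only called gene below 0.

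The steps were also followed array by array, as the median over a step's genes of the log2 level relative to the WT mean. Pyruvate dehydrogenase stood at −0.39, 0.17 and 0.31 in WT and at 1.28, 1.35 and 1.08 in Zip13-KO arrays. The TCA cycle stood at −0.21, 0.08 and 0.15 in WT and at 0.83, 0.97 and 0.85 in Zip13-KO arrays. For β-oxidation the values were −0.32, 0.13 and 0.15 in WT and 1.04, 1.20 and 1.04 in Zip13-KO arrays. All 3 steps separated the genotypes in full, and each had its lowest value in WT replicate 1. Whether the steps differ from each other in their change was not tested.

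Partner enzymes were compared directly by taking the difference of their log2 values within each array, which cancels what an array shares between them. Idh3a minus Idh2 was −0.67 ± 0.45 (SD, n = 3) in WT and 0.41 ± 0.21 in Zip13-KO arrays, a shift of 1.08, and the genotypes did not overlap (exact permutation test, two-sided, p = 0.1, adjusted over 5 pairs 0.25). Sucla2 minus Suclg2 was 3.53 ± 0.12 in WT and 3.90 ± 0.17 in Zip13-KO arrays, a shift of 0.37 without overlap (exact permutation p = 0.1, adjusted 0.25). With 3 arrays against 3, 0.1 is the smallest p this test can give, so no pair could pass the threshold. Long-chain Acadvl minus short-chain Acads shifted by 0.18, with overlapping genotypes (exact permutation p = 0.2, adjusted 0.333). Subunits of 1 enzyme gave the smallest shifts: Pdha1 minus Pdhb shifted by 0.02 and Hadha minus Hadhb by −0.06, with overlap in both (exact permutation p = 1 for each). The direction of these small shifts turned when single arrays were left out.

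**Figure D3:**
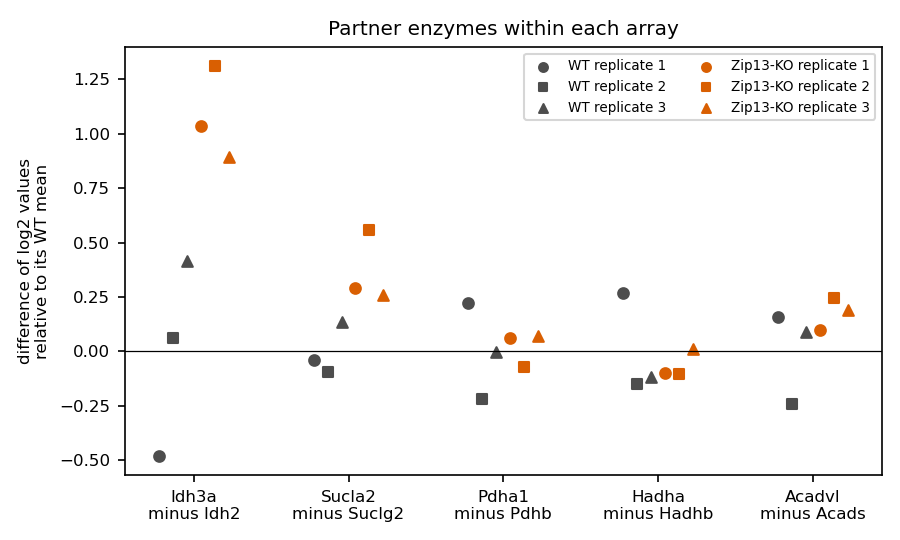
Difference between the log2 values of 2 partner enzymes within each array, set to 0 at its WT mean (vertical axis), for 5 pairs, with 1 point for each WT (grey) and Zip13-KO (orange) array. The Zip13-KO points lie above the WT points for Idh3a minus Idh2 and for Sucla2 minus Suclg2, and the points of both genotypes are mixed for the other 3 pairs.

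Neighbouring genes of the pathway were read from lists of their own. Of 8 genes for pyruvate entry and further TCA steps, 7 were tested and 7 were called higher, with a median change of 0.82. Mpc1 and Mpc2, the mitochondrial pyruvate carrier, rose by 1.11 and 1.16, and Pcx, the pyruvate carboxylase that refills oxaloacetate, rose by 1.14 (limma adjusted p = 0.0103, 0.00739 and 0.0135). The succinate dehydrogenase genes Sdha, Sdhb, Sdhc and Sdhd rose by 0.77, 0.66, 0.82 and 0.76. Ogdhl, a relative of Ogdh, did not pass the filter on dim probes.

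Of 5 genes for cytosolic enzymes that act on the same metabolites, 4 were called higher: Aco1, an aconitase, by 0.95, Mdh1, a malate dehydrogenase, by 0.63, Me1, malic enzyme, by 1.33, and Acly, ATP citrate lyase, by 1.31. Idh1, the cytosolic NADP-dependent isocitrate dehydrogenase, changed by 0.51 (SE 0.12, limma adjusted p = 0.0211) and did not reach 1.5-fold. Acly read 14.37, 15.34 and 15.72 in WT and 16.67, 16.69 and 16.01 in Zip13-KO arrays, so its groups were wide and only just apart (limma adjusted p = 0.0411). The count of 4 fell to 1 without Zip13-KO replicate 1 or 2, with the replicate block, by the methods' t-test and at an adjusted p under 0.01, and to 2 without Zip13-KO replicate 3 or with no filter.

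Among 10 genes that regulate pyruvate dehydrogenase or attach its lipoyl group, 8 were tested, 5 were called higher and 1 was called lower. Pyruvate dehydrogenase kinases switch the complex off, and the kinase genes moved in opposite directions. Pdk2 read 10.55, 10.57 and 10.70 in WT and 11.83, 11.74 and 11.87 in Zip13-KO arrays, a change of 1.21 (SE 0.08, limma adjusted p = 0.00326). Pdk4 rose by 1.25 (SE 0.19, limma adjusted p = 0.00775) and Pdk1 by 0.69 (SE 0.11, limma adjusted p = 0.00856).
Pdk3 read 9.06, 9.04 and 8.97 in WT and 8.35, 8.37 and 8.52 in Zip13-KO arrays, a change of −0.61 (SE 0.08, limma adjusted p = 0.00643). The Pdk3 values were tight in both genotypes, but the call, which lies just past 1.5-fold, was lost with normexp background correction, in the deposited table and without Zip13-KO replicate 1, where 0 genes of this list were called lower. The phosphatases that reactivate the complex also differed from each other, with a change of 1.16 for Pdp2 (limma adjusted p = 0.00689) and of −0.10 for Pdp1 (limma adjusted p = 0.610). Of the lipoylation genes, Lipt1 rose by 1.15 (limma adjusted p = 0.00935), and Lias, at 0.49 (limma adjusted p = 0.0135), did not reach 1.5-fold. Pdpr did not pass the filter, and no probe was named for Lipt2.

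All 12 genes for other mitochondrial enzymes and carriers of acyl-CoA were tested, and 7 were called higher, with a median change of 0.75. Slc25a20, the carnitine and acylcarnitine carrier, rose by 1.30, and Cpt2, which returns acyl groups to CoA in the matrix, rose by 1.15 (limma adjusted p = 0.00444 and 0.00831). Acad11, an acyl-CoA dehydrogenase, rose by 1.07. Ech1, an auxiliary isomerase, rose by 0.87, as did Acat1, an acetoacetyl-CoA thiolase. Auh and Acadsb, of branched-chain amino acid breakdown, rose by 0.77 and 0.73. The smallest change was 0.22 for Acad10 (limma adjusted p = 0.315).

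Regulators of oxidative genes gave a mixed picture. Of 14 genes tested, 7 were called higher and 0 lower (10 higher and 1 lower at an unadjusted limma p under 0.05), and the median change was 0.69. Ppara, a nuclear receptor that drives fatty acid oxidation genes, read 8.99, 9.56 and 10.16 in WT and 11.57, 11.98 and 11.25 in Zip13-KO arrays, a change of 2.03 (SE 0.33, limma adjusted p = 0.00913). Its rise exceeded that of any of the 32 enzymes as fitted, and the genotypes did not overlap. The adipogenic receptor gene Pparg rose by 1.13, and the coactivator genes Ppargc1a and Ppargc1b by 1.1 and 1.19 (limma adjusted p = 0.0141, 0.00695 and 0.0137).
The estrogen-related receptor genes Esrra, Esrrb and Esrrg rose by 0.73, 0.65 and 1.15 (limma adjusted p = 0.00876, 0.0371 and 0.0127). By contrast, Ppard changed by −0.03, and Nrf1, an activator of nuclear genes for mitochondrial proteins, changed by −0.26 (limma adjusted p = 0.739 and 0.0502). Tfam, the mitochondrial transcription factor, changed by 0.13 (limma adjusted p = 0.154). Of the other regulators not called, Perm1 changed by 1.42, Rxra by 0.54, Rxrg by 0.32 and Gabpa by 0.29 (limma adjusted p = 0.0688, 0.0180, 0.112 and 0.0381). Perm1 had 2 of 3 WT arrays well above background, so it passed the filter only through the Zip13-KO arrays. Esrrb, though called higher, was dim. It read 4.12, 3.74 and 3.67 in WT and 4.72, 4.19 and 4.55 in Zip13-KO arrays, with groups only 0.076 apart. The methods' t-test, adjusted, called 4 regulators higher and 0 lower, and 4 were called higher without Zip13-KO replicate 1. The count called higher was 5 with normexp background correction and 6 in the deposited table. It was 3 at an adjusted p under 0.01 and 8 with the replicate block.

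Promoter windows from RefSeq, 250 bases before to 50 bases after a start (GRCm38.p6), were held for 29 of the 32 genes. They were searched on both strands for letters that some of these regulators are known to bind. The GC box, which was not picked as a site of these regulators, was searched as well. The half-site of nuclear receptors, AGGTCA, occurred in 7 of the 29 genes (24.1%), and in 18.1% of the 27025 genes in the table. An estrogen-related receptor element, TCA followed directly by that half-site and so always overlapping it, occurred in 0 of 29 genes and in 0.466% of all genes. A direct repeat of the half-site with any 1 base between, of the kind bound by PPARs, occurred in 0 of 29 and in 0.0481% of all genes. The GC box shown above occurred in 20 of 29 genes (69%) and in 38.2% of all genes, and it was chosen after the sequences were seen.

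The NRF1 core, GCGC followed by ATGCG, occurred in 3 of the 29 genes (10.3%), namely Acadm, Etfdh and Ogdh, and in 1.95% of all genes. These 3 members rose by 1.14, 1.1 and 0.96, but all 32 members rose, with a median of 0.999. Their rise thus does not set them apart. Nrf1 itself was not called, though every Zip13-KO array read below every WT array for it. The part of NRF1 in the rise was not tested. The surrounding 60 bases of these 3 promoters are shown because these members rose while Nrf1 was not called. They are given in the direction of transcription, with the match in capitals, from chr3:153944769-153944828 (minus strand), chr3:79628863-79628922 (minus strand) and chr11:6292519-6292578 (plus strand). In Etfdh the letters match on both strands, in places shifted by 1 base.
Acadm: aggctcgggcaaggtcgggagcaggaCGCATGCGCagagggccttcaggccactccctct
Etfdh: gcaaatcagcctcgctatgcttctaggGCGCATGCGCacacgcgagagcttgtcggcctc
Ogdh: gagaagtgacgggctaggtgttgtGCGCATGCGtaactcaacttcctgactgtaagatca
A match is a description of the letters and says nothing of binding in iWAT, and the lack of a match says only that the letters are not in the window.

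Apart from Hadha and Hadhb, 4 members had a tested gene starting head to head with them, and these neighbours were looked up after the members' values were known. Apip, a methionine salvage enzyme gene 162 bases from Pdhx, rose by 0.63 (limma adjusted p = 0.00909). Styxl1, 264 bases from Mdh2, changed by 1.05 (limma adjusted p = 0.0276), with 2 of 3 WT arrays well above background. Ssr4, 126 bases from Idh3g, changed by −0.16 (limma adjusted p = 0.287), and 4930579G24Rik, 312 bases from Etfdh, by −0.26 (limma adjusted p = 0.174). Neighbours of called members were thus both called and not called.

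Adipocyte and brown adipocyte markers moved in the direction of the enzymes, and macrophage and lymph node markers in the other. All 10 adipocyte markers had a change above 0, 3 of them called higher (Slc2a4, Plin1 and Lipe; 0 to 5 when single arrays were left out), with a median of 0.56, and their summed intensity was 581380 to 742445 in WT and 844987 to 868900 in Zip13-KO arrays. Cfd, Fabp4 and Adipoq, which encode abundant adipocyte proteins, changed by 0.03, 0.20 and 0.41 and were not called. Cfd and Fabp4 lay near the top of the scale, where quantile normalization gives the arrays shared values (17.475 occurred in both genes). Little rise could show there, so their small changes do not measure how far these transcripts differed. The median of the 10 markers relative to the WT mean was −0.36, 0.25 and 0.11 in WT and 0.55, 0.54 and 0.59 in Zip13-KO arrays, and WT replicate 1 was again the low array. When this median was subtracted in each array, the median of the 32 enzymes was 0.07, −0.14 and 0.07 in WT and 0.38, 0.55 and 0.38 in Zip13-KO arrays, which did not overlap. On the same footing Idh2 read 0.35, −0.29 and −0.07 in WT and −0.29, −0.38 and −0.32 in Zip13-KO arrays. The subtracted median includes Cfd and Fabp4, so it may fall short of the rise of adipocyte transcripts. Slc2a4, Lep, Plin1 and Lipe changed by 1.08, 1.07, 0.83 and 0.77, and the rest of the 10 markers by 0.58 or less. Whether the enzymes rose beyond the adipocyte transcripts was not tested. In bulk tissue, more or fewer cells of a type and more or less RNA per cell cannot be told apart.

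Brown adipocyte markers had a greater median change than any enzyme step. All 10 were above 0 and 8 were called higher, with a median of 2.22, and their summed intensity was 36417 to 58424 in WT and 162695 to 252467 in Zip13-KO arrays. Elovl3, 1 of the 8, had 2 of 3 WT arrays well above background, so it passed the filter only through the Zip13-KO arrays. With the filter on all 6 arrays, 7 were called higher and the median was 2.19. Ucp1, the uncoupling protein of brown and beige fat, read 10.68, 8.20 and 9.42 in WT and 13.19, 15.50 and 15.07 in Zip13-KO arrays, a change of 5.16 (SE 0.82, limma adjusted p = 0.00883). Cox8b, Cidea and Cox7a1 rose by 1.67, 2.25 and 3.31, and Ppargc1a belongs to this list as well as to the regulators. Zic1 and Lhx8 were not called, with changes of 0.29 and 0.30 and overlapping genotypes (limma adjusted p = 0.119 and 0.212). Among the Zip13-KO arrays, replicate 2 was highest for Ucp1 and for 27 of the 32 enzymes. Replicate 1 was lowest for Ucp1 but for only 16 of the 32 enzymes, and replicate 3 was lowest for 13. The part of these cells in the enzymes' rise was not tested.

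Most macrophage markers fell. All 10 had a change below 0, 8 were called lower (5 by the methods' t-test), and the median was −1.31, with a summed intensity of 102372 to 169427 in WT and 47550 to 64114 in Zip13-KO arrays. The changes of Csf1r, C1qa and C1qc, all called lower, were −1.03, −1.45 and −1.37. The 10 lymph node markers, Cd79b, Ms4a1 and Ccr7 among them, all had a change below 0, with a median of −0.40. Of these, 0 were called by limma or by the methods' t-test, 8 had an unadjusted limma p under 0.05, and the summed intensity was 62337 to 75981 in WT and 44061 to 50823 in Zip13-KO arrays. The part of either cell type in the enzymes' rise was not tested.

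Skeletal muscle is rich in the same enzymes and lies close to the iWAT. Of its 15 markers, 13 were tested and 0 were called by limma or the methods' t-test (1 higher and 1 lower at an unadjusted limma p under 0.05), with a median of 0.58 and a summed intensity of 2718 to 5365 in WT and 3233 to 11402 in Zip13-KO arrays. Myh1 and Casq1 did not pass the filter, and the changes of Acta1, Tnni2 and Tnnc2 were 0.43, 0.35 and 0.91 (limma adjusted p = 0.448, 0.523 and 0.231). The markers with the greatest changes, named after their values were seen, were Mb at 2.37, Ckm at 1.15 and Myh4 at 1.09 (limma adjusted p = 0.0712, 0.320 and 0.321). The 2 markers below 0 were Ryr1 at −0.62 and Myh7 at −0.14 (limma adjusted p = 0.0553 and 0.511). For Ryr1 every Zip13-KO array read below every WT array. Every Zip13-KO array read above every WT array for Mb. However, Mb read 1.35, 3.38 and 3.82 in WT arrays, with 2 of 3 well above background, so it passed the filter only through the Zip13-KO arrays. With the replicate block, 1 muscle gene was called higher and 1 lower. Relative to the WT mean their median was −0.13, −0.29 and 0.44 in WT and −0.08, 0.44 and 2.01 in Zip13-KO arrays, so Zip13-KO replicate 3 stood apart. In Zip13-KO replicate 1 the muscle markers were at the WT level while the 32 enzymes stood at 0.93, and without Zip13-KO replicate 3 the median change of the enzymes was 1.01 with 30 called. The part of muscle in the enzymes' rise was not tested. Of 10 mammary epithelium markers, 6 were tested and 0 were called by limma or the methods' t-test (1 at an unadjusted limma p under 0.05), with Krt18 at 0.67, Krt5 at 0.89 and Cldn7 at 0.03. The summed intensity of the mammary markers was low in both genotypes, at 199 to 452 and 207 to 578, and Krt8, Elf5, Csn3 and Wap did not pass the filter.

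**Figure D4:**
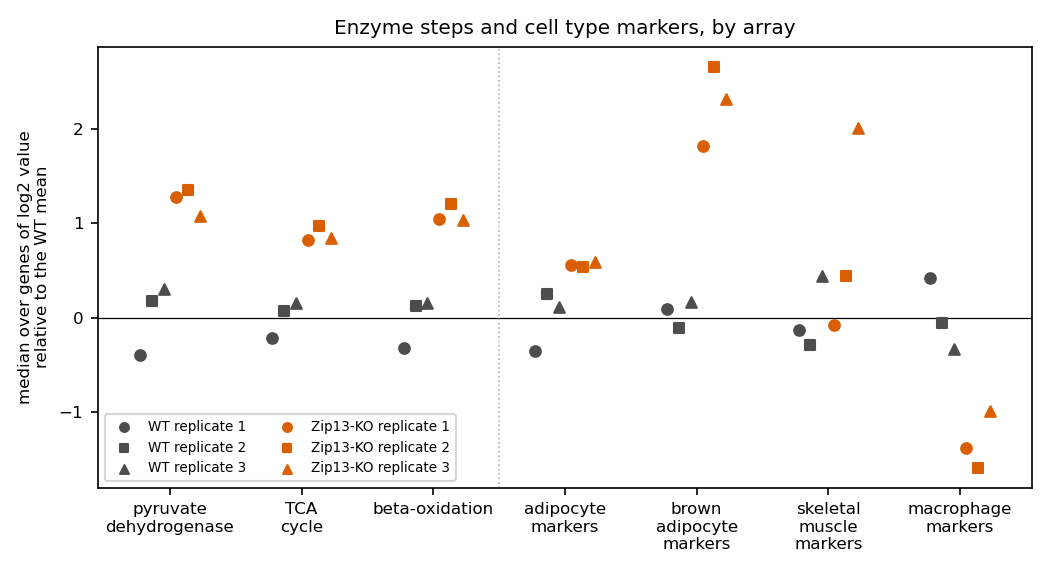
Median over the genes of a list of the log2 value relative to the WT mean (vertical axis), for the 3 enzyme steps (left of the dotted line) and 4 cell type marker lists (right), with 1 point for each array. The enzyme steps and the adipocyte and brown adipocyte markers are higher in every Zip13-KO array than in every WT array and the macrophage markers lower, while the muscle markers are high in Zip13-KO replicate 3 at 2.01 and at the WT level in Zip13-KO replicate 1.

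Several genes were read by more than 1 probe. Of the 32 genes, 26 had a single probe that passed the filter and 6 had more. For Dld, Etfa, Etfb, Pdhb and Decr1, every probe had all Zip13-KO arrays above all WT arrays, with changes of 0.73 to 1.26 over their probes. Ogdh, described above, was the gene whose probes differed.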

How the data were processed

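Total RNA of 3 WT and 3 Zip13-KO iWAT samples was labelled with Cy3 and hybridized to Agilent mouse 1-colour arrays. The scanner files deposited by the authors give a processed signal in intensity units, corrected for background and not normalized between arrays. The authors also deposited a table of quantile-normalized log2 values, which ranks probes as the median signal of each array does (rank correlation 1).

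From the scanner files, control spots and outlier spots were left out, log2 of the processed signal was averaged over spots of a probe, and arrays were quantile normalized. Probes were kept when either genotype had them well above background on each of its 3 arrays (33046 of 55681). Probes were named through RefSeq transcripts of GRCm38.p6 without versions, which named 28331 probes (50.9%), and the brightest kept probe stood for each of 15306 genes. Median processed signals were 33.2 to 40.6 intensity units per array against a local background of 31 to 39.5, and the number of arrays limits the precision.

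Genotypes were compared by the lmFit and eBayes functions of limma 3.58.1, run in R 4.3.3, with Benjamini-Hochberg adjustment over all genes, an adjusted p under 0.05 and a change above 1.5-fold. limma stood in for the study's test, which combined a t-test with a test of median ratios in a way not given in the sources used here. Partner enzymes were compared by exact permutation over arrays. The members, the 5 other pathway lists and the 6 marker lists were chosen with earlier results of these data known. Named are all members, from each other pathway list the called genes and those with the greatest and smallest change, and from each marker list the most abundant. Other genes of these lists were named after their values were seen. These were the untested genes of any list and, from the pathway lists, the uncalled regulators, Pdp1 and Lias. From the marker lists they were Ucp1, Elovl3, Zic1, Lhx8, Slc2a4, Plin1, Lipe, Lep, Mb, Ckm, Myh4, Ryr1 and Myh7. The other settings were 75th percentile scaling, normexp background correction (offset 50, on the median signal, since the files hold no mean signal), the deposited table, no filter, a filter on all 6 arrays, averaged probes, a trended robust prior, the methods' t-test, an adjusted p under 0.01, a replicate block and leaving out each array. A slide or scan block was not run, since there was 1 slide and 1 scan. Promoter windows came from RefSeq (GRCm38.p6). 1 gene of the list for pyruvate entry and other TCA genes is not reported here.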

Additional observations from a re-analysis of the deposited data

How the results depend on the processing

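The median change of the 32 enzymes was 0.84 or more and none of the 32 reversed under any setting tried. All 31 calls were kept with 75th percentile scaling, normexp background correction, the deposited table, no filter, a filter on all 6 arrays, averaged probes, the trended robust prior and each WT array left out. With the methods' t-test, adjusted, 29 were called higher (Pdhb and Echs1 were lost), and at an adjusted p under 0.01 by limma 22 were. These 2 counts come with a test without shared spread and with a stricter threshold. Without Zip13-KO replicate 1, 2 or 3 the count was 28, 26 and 30. Leaving out a WT array left as many arrays but kept all 31 calls, and the cause of this difference was not tested. Of the 5 pyruvate dehydrogenase genes, 3 were called at an adjusted p under 0.01 and 3 to 5 when single arrays were left out, and their median change ranged from 0.95 to 1.41, lowest without WT replicate 1. The shift of Hadha minus Hadhb ranged from −0.134 to 0.0882 when single arrays were left out, above 0 without WT replicate 1, and that of Pdha1 minus Pdhb from −0.0891 to 0.15, below 0 without WT replicate 2 and without Zip13-KO replicate 1 or 3; the cause was not tested. The labels number the arrays of both genotypes 1 to 3, but same-numbered arrays did not deviate together (correlations of −0.02, 0.04 and −0.08 over genes). With the number as a replicate block, 31 of the 32 enzymes were called higher, and over all genes 1278 were called higher and 1051 lower, against 1576 and 1282 without it. Over all genes the calls higher and lower were 707 and 505 at an adjusted p under 0.01, 1007 and 721 by the methods' t-test, 955 and 767 without Zip13-KO replicate 1, and 1016 and 784 without replicate 2. With 3 arrays per genotype, partner enzymes could not be separated at the threshold by an exact test, and dim probes such as that of Styxl1 lie near the background.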
